A study of Mus musculus with 2 samples.

Results

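Cells that carried transcripts of both Etv2 and Lmo2 were examined in a PHD2-KO and a WT library, each made with the droplet method of 10x Genomics. Members were chosen by measured values, the counts of these 2 genes. A cell barcode was a member if it held at least 3 unique molecular identifiers (UMIs, counts of captured RNA molecules) of Etv2 and at least 1 of Lmo2. Only barcodes with 1000 or more genes entered, and those above 10% mitochondrially encoded UMIs were left out. The rule found 203 members among 16610 barcodes. Of these, 190 lay among the 7383 PHD2-KO barcodes and 13 among the 9227 WT barcodes.

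Both libraries came from AB2.2, an established mouse embryonic stem cell line, after 4 days of differentiation toward mesendoderm and dissociation with trypsin. The PHD2-KO cells lack PHD2, an oxygen-dependent prolyl hydroxylase that marks HIF proteins for decay and is encoded by Egln1, and the WT cells are labelled wild type. Which part of Egln1 was altered, and in how many clones, is not stated in the sources used here. With 1 library per genotype there was no replicate, so differences between genotypes are differences between 2 libraries, without a test or a p-value. All intervals are exact and cover counting error only.

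Etv2 is an ETS-family transcription factor that is switched on transiently in mesoderm and is required in the mouse embryo for the first blood and endothelial cells. Lmo2 is a LIM-only adaptor that has no DNA binding of its own and bridges GATA factors and basic helix-loop-helix factors such as Tal1. Tal1 is required for blood formation, and Kdr encodes the VEGF receptor that marks mesoderm with vascular and blood potential. In the gastrulating embryo such cells arise from the primitive streak, where Mesp1, Mixl1 and Brachyury (T) are active.

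In GRCm38 (GENCODE M21) Etv2 lies at chr7:30633616-30635852 on the minus strand and Lmo2 at chr2:103957986-103981878 on the plus strand. Exoc3l, which led the more abundant genes below, lies at chr8:105289924-105296101 on the minus strand. The start regions of Tal1, Kdr and Igfbp4 are shown because the results turn on them, with the letters that factors of these families are known to bind. Each window runs from 250 bases before to 50 bases after the start in RefSeq (GRCm38.p6), 5′ to 3′ on the gene's strand. Capitals mark one of 3 motifs. The ETS motif was spelled CCGGAA, and on the reverse strand this reads TTCCGG. Shorter ETS forms, such as GGAA, were not marked. The motif of GATA factors was spelled AGATAA, and on the reverse strand this reads TTATCT. The E-box was spelled CAGATG, and on the reverse strand this reads CATCTG. Both strands were searched, and no match in these windows overlapped another.
Tal1, chr4:115056176-115056475, plus strand: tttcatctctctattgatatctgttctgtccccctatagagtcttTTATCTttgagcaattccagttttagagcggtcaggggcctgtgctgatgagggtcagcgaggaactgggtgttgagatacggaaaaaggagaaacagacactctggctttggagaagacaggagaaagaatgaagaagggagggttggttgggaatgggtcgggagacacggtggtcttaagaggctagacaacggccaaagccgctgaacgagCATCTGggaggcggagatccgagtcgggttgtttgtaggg
Kdr, chr5:75978406-75978705, minus strand: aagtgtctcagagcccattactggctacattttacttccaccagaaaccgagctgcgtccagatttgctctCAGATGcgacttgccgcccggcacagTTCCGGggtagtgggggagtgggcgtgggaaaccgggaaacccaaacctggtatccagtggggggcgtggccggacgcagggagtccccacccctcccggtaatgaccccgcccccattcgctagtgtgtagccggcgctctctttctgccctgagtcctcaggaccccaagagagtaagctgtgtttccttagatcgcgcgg
Igfbp4, chr11:99040994-99041293, plus strand: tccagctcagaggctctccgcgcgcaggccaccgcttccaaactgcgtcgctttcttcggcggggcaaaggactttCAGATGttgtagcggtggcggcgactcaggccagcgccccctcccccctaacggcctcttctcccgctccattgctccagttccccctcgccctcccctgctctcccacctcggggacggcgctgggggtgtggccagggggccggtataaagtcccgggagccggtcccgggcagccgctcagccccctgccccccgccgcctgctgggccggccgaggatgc
The Tal1 window held 1 GATA motif and 1 E-box, the Kdr window 1 ETS motif and 1 E-box, and the Igfbp4 window 1 E-box. The Etv2 window (chr7:30635803-30636102, minus strand) and the window of the other Tal1 start (chr4:115057561-115057860, plus strand) held none of the 3 as spelled here. Among 32851 mouse windows of this length, 14.9% held the ETS motif, 11.2% the GATA motif and 17.15% the E-box. A match describes letters in this window and says nothing of binding.

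Members were more frequent in the PHD2-KO library. They made up 2.57% of PHD2-KO barcodes (interval 2.22 to 2.96%) and 0.141% of WT barcodes (0.0750 to 0.241%). Among barcodes with 3 or more Etv2 UMIs, Lmo2 was found in 190 of 716 PHD2-KO barcodes (26.5%) and in 13 of 95 WT barcodes (13.7%). Among barcodes with fewer Etv2 UMIs, it was found in 518 of 6667 PHD2-KO barcodes (7.77%) and in 233 of 9132 WT barcodes (2.55%). Lmo2 was thus seen more often at 3 or more Etv2 UMIs than below in each library. These shares, which rest on the values that chose the members, are a description. Median depth at 3 or more and below was 29946 and 20696 UMIs in WT, and 23005 and 21105 UMIs in PHD2-KO. The part of depth in these shares was not tested.

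The share of PHD2-KO barcodes with Lmo2 was 6.72% at 0 Etv2 UMIs, 10.3% at 1, 13.1% at 2, 17.4% at 3 and 37.8% at 12 or more. Just outside the Etv2 minimum lay the 54 PHD2-KO and 13 WT barcodes with 2 Etv2 UMIs and Lmo2. Just inside lay the 30 PHD2-KO and 6 WT members with 3. No gap separated the members from the barcodes below the minimum. Exoc3l was at 137 CPM (counts of its UMIs scaled to a total of 1000000) in the 30 PHD2-KO members just inside. It was at 89.85 CPM in the 54 barcodes just outside. Among genes at 50 CPM or more it had the highest ratio in PHD2-KO members, as given below. Median depth was 20564 UMIs in PHD2-KO barcodes without Etv2, 24006 at 3 Etv2 UMIs and 23005 at 12 or more. Thinning every barcode to 14000 UMIs before the rule left 1.56% members in the PHD2-KO library and 0.0829% in the WT library.

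**Figure D1:**
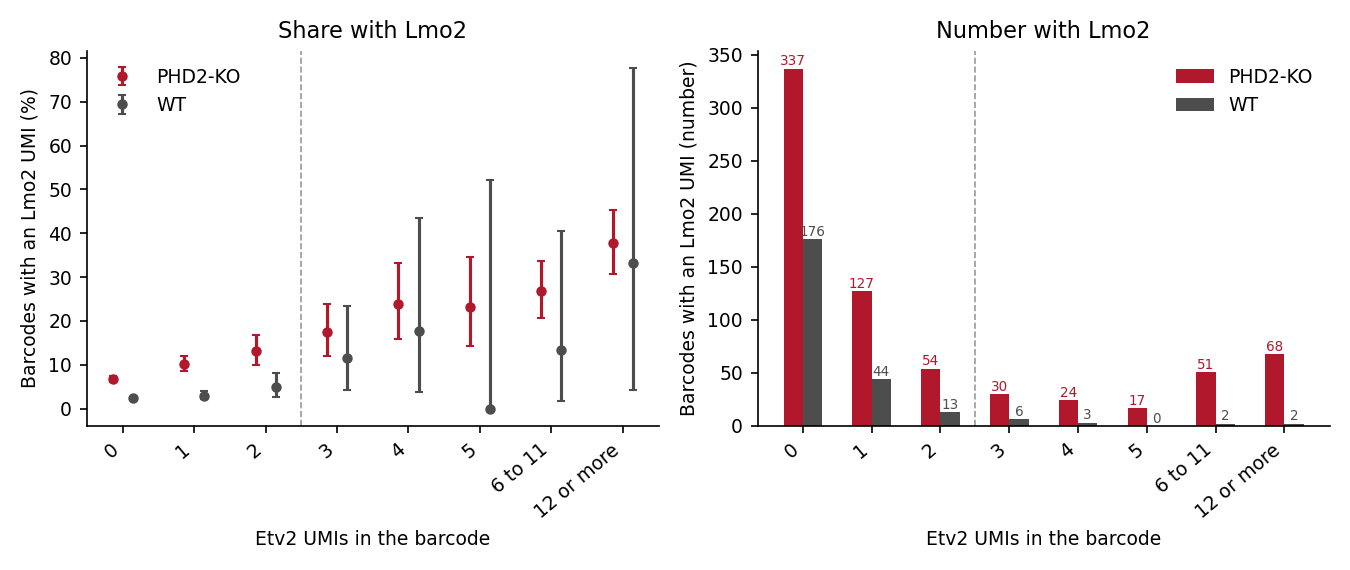
Left, share of barcodes with at least 1 Lmo2 UMI (%, with exact 95% intervals) by the number of Etv2 UMIs in the barcode, in PHD2-KO (red) and WT (grey); right, the number of such barcodes. Members lie right of the dashed line; in PHD2-KO the share is 6.72% at 0 Etv2 UMIs and 37.8% at 12 or more, and the WT intervals right of the line are wide because the bins hold 5 to 52 barcodes.

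PHD2-KO members held 3 to 82 Etv2 UMIs (median 7.5) and 1 to 10 Lmo2 UMIs (median 2), and 93 of the 190 held 1 Lmo2 UMI. WT members held 3 to 25 Etv2 UMIs (median 4) and 1 to 5 Lmo2 UMIs (median 1), and 11 of the 13 held 1. With UMIs summed over a set and scaled to its total, Etv2 was at 433 CPM in PHD2-KO members and 38.7 CPM in the other PHD2-KO barcodes, and at 163 CPM in WT members and 10.7 CPM in the other WT barcodes. Lmo2 was at 92.4 and 4.34 CPM in PHD2-KO, and at 34.9 and 1.17 CPM in WT, members before other barcodes. These levels chose the members and are given as a description. Most WT members sat at or near both minimums, and 18 barcode sequences were shared by the libraries, 0 of them members.

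The members differed from the other barcodes in some technical measures. PHD2-KO members had a median of 23412 UMIs and 4101 genes, against 21288 UMIs and 3883 genes in the other PHD2-KO barcodes. WT members had 30063 UMIs and 4748 genes, against 20738 UMIs and 3617 genes in the other WT barcodes. The median doublet score from Scrublet was 0.0827 in PHD2-KO members and 0.0890 in the others, and 0.199 in WT members and 0.139 in the others. Depth and doublet score were thus both higher in WT members than in their library, and their part in the WT results was not tested. The share of UMIs from chromosome 8 fell into a low and a high class within each library, separated here at 5.8%, a limit set after the values were seen. The low class held 58.4% of PHD2-KO members and 43.2% of the other PHD2-KO barcodes, and results within each class are given below.

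Some haemato-endothelial factors that the rule did not use were higher in PHD2-KO members. Tal1, Elk3 (an ETS factor of vascular cells) and Hhex (a homeobox factor of endothelium and endoderm) were more than 2-fold above the other barcodes. In comparisons of sets, a gene counted as measured if the higher set reached 10 CPM, and as called where its levels, each with 1 CPM added, differed by at least 2-fold. PHD2-KO members set against the other PHD2-KO barcodes gave 103 calls among 6759 measured genes (1.52%), 72 higher (1.07%) and 31 lower (0.459%). Of the 18 haemato-endothelial factors on a list that leaves out Etv2 and Lmo2, 4 were measured, 3 of them higher and 0 lower. The 3 higher ones reached 10 CPM only through the members, so their number is set in part by that limit and no median is given. Over all measured genes the median log2 ratio was -0.01.

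Tal1 was at 14.03 CPM in PHD2-KO members (interval 10.9 to 17.7; 70 UMIs) and 0.309 CPM in the other PHD2-KO barcodes, and at 1.94 CPM in WT members (1 UMI) and 0.209 CPM in the other WT barcodes. The PHD2-KO levels differed 45.3-fold (31.2 to 66.2). The 190 members, 2.57% of the library, held 57.4% of its Tal1 UMIs. Tal1 was the gene with the highest ratio among the measured genes of the haemato-endothelial list.

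Elk3 was at 11.02 CPM in PHD2-KO members and 4.06 CPM in the others (2.71-fold, 2.02 to 3.57). Hhex was at 12.6 CPM in members and 5.14 CPM in the others (2.46-fold, 1.87 to 3.17). Ldb1, the partner through which Lmo2 complexes are held together, was at 12.02 and 10.2 CPM and was not called. Its interval (0.896 to 1.525-fold) included no difference.

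Below the 10 CPM limit, several factors of early vessels had levels in PHD2-KO members well above their counting error. Sox18, an endothelial SOX factor, was at 6.01 CPM in members and 0.167 CPM in the others (36.1-fold, 20.8 to 62.7). Its relative Sox7 was at 2.004 and 0.107 CPM (18.7-fold, 7.72 to 42.8). Gata2, a GATA factor of blood progenitors, was at 5.81 and 1.77 CPM (3.28-fold, 2.16 to 4.81). These genes rested on 10 to 30 UMIs among members. Lyl1, the basic helix-loop-helix relative of Tal1, was at 1.002 and 0.131 CPM. Fli1, an ETS factor that follows Etv2 in endothelium, had 2 UMIs in the members, and Erg, Gfi1 and Myct1 had 0 UMIs, for which 0.601 CPM is the limit that a count of 0 allows. Ets1 was at 6.41 CPM in members and 6.14 CPM in the others.

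Receptors of vascular growth factors were higher in PHD2-KO members, while genes of mature endothelial junctions were scarce. Of 29 endothelial receptor and junction genes, 8 were measured, 6 of them higher and 0 lower. Through the members alone 6 of the 8 had reached 10 CPM, so the count favours higher genes by construction. Kdr was at 17.4 CPM in PHD2-KO members (interval 13.96 to 21.5; 87 UMIs) and 3.12 CPM in the other PHD2-KO barcodes (5.59-fold, 4.40 to 7.03). In WT members Kdr had 0 UMIs, which allows up to 5.82 CPM, and the other WT barcodes were at 0.0622 CPM. Kdr therefore could not be compared within WT at this depth.

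The related receptor gene Flt1 was at 16.4 CPM in PHD2-KO members and 5.22 CPM in the others (3.15-fold, 2.48 to 3.95). The co-receptor genes Nrp1 and Nrp2 were at 12.4 and 54.1 CPM in members and at 2.62 and 17.7 CPM in the others (4.75-fold and 3.05-fold). Rhoj, a small GTPase of endothelial cells, was at 10.6 CPM in members and 1.82 CPM in the others (5.83-fold, 4.27 to 7.83). Ramp2, which serves the adrenomedullin receptor, was at 22.8 and 8.79 CPM (2.60-fold, 2.13 to 3.15). All 5 were called higher, and with Kdr they make up the 6, but Ramp2 was short of 2-fold within the low chromosome 8 class (log2 ratio 0.89).

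Eng, an accessory receptor of the TGF-beta family, was at 18.6 CPM in PHD2-KO members and 8.95 CPM in the others, just under the call at a log2 ratio of 0.98, and past it at 1.02 to 1.096 in 7 alternatives. Egfl7, a matrix protein secreted by endothelium, was at 49.1 and 34.9 CPM and was not called. Icam2 (3.81 CPM in members, 0.155 CPM in the others), Plxnd1 (6.21 and 1.02 CPM), Flt4 (5.01 and 1.52 CPM) and Cldn5 (3.41 and 0.619 CPM) were below the 10 CPM limit. The genes that define differentiated endothelium were near their floor. Cdh5 had 5 UMIs over the 190 members (1.002 CPM, against 0.167 CPM in the others) and Pecam1 had 5 (1.002 CPM, against 1.24 CPM). Tek and Tie1 had 1 UMI each in members and Emcn had 0. Over the 8 endothelial markers, of which Egfl7 is one, the summed level was 57.3 CPM in PHD2-KO members and 37.2 CPM in the others. Without Egfl7, which held most of these UMIs, the other 7 summed to 8.22 CPM in members (5.895 to 11.1; 41 UMIs) and 2.24 CPM in the others.

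Blood genes were not called in PHD2-KO members. Of 20 genes of primitive blood, 1 was measured, Zfpm1 (a GATA cofactor), at 17.0 CPM in members and 13.1 CPM in the others. Gata1, the embryonic globin genes Hbb-bh1, Hba-x and Hbb-y, Ikzf1, Alas2 and Ptprc had 0 UMIs in members, and Klf1 had 2. Runx1, required for the emergence of definitive blood cells, was at 7.21 CPM in members and 4.09 CPM in the others, with a UMI in 23 of 190 members. A count of 0 in the members allows up to 0.601 CPM, so globin transcripts were not detectable at this depth.

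Counted by barcode, Tal1 was present in 41 of 190 PHD2-KO members (21.6%, interval 15.95 to 28.1%) and in 45 of 7193 other PHD2-KO barcodes (0.626%). Free RNA can place UMIs in cells that do not express a gene, so the 5% of barcodes highest in naive pluripotency genes served as the background. Tal1 was present in 0.543% of those 368 barcodes, at a median depth of 24516 UMIs. Kdr was present in 27.9% of members, 4.39% of the others and 1.36% of the naive-high barcodes. The shares among members were above both for each gene. At 14000 UMIs per barcode, which 183 members and 6548 others reached, Tal1 was present in 15.85% and 0.366%, and Kdr in 21.3% and 3.02%, members before others.

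Of the 6 haemato-endothelial markers other than Etv2 and Lmo2, which are Tal1, Kdr, Gata2, Fli1, Lyl1 and Sox7, at least 1 was present in 90 of 190 PHD2-KO members (47.4%) and in 8.26% of the other PHD2-KO barcodes. Kdr and Tal1 were found together in 14 members, while 53 members held Kdr and 41 held Tal1. Neither was found in 110 members. The label of co-expressing cells describes the rule, and for 100 of the 190 members none of the 6 further markers was detected at this depth. In WT, 1 of 13 members (7.69%) and 2.58% of the other WT barcodes held any of the 6.

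Splitting the PHD2-KO library by the 2 rule genes showed which genes went with both. Members were set beside 526 barcodes with 3 or more Etv2 UMIs and no Lmo2, 518 with Lmo2 and fewer Etv2 UMIs, and 6149 with neither. Etv2 counts here from 3 UMIs, so the sets named Lmo2 alone and neither also hold barcodes with 1 or 2. Of the 518, 127 held 1 Etv2 UMI and 54 held 2. Tal1 was at 14.03 CPM in members, 0.727 CPM with Etv2 alone, 1.61 CPM with Lmo2 alone and 0.149 CPM with neither. Exoc3l, an exocyst component-like gene, was at 139, 32.1, 54.4 and 11.97 CPM in the same order. Igfbp4, which encodes a binding protein of insulin-like growth factors, was at 89.6, 38.4, 33.9 and 10.1 CPM. For these genes the members were above either of the sets that met only 1 of the 2 minimums.

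For other genes the members were closer to the barcodes with Etv2 alone. Kdr was at 17.4 CPM in members, 12.3 CPM with Etv2 alone, 5.43 CPM with Lmo2 alone and 2.01 CPM with neither. Mixl1, a streak homeobox gene, was at 190, 162, 91.9 and 61.2 CPM in the same order. Cyp26a1, which breaks down retinoic acid, was at 86.4, 80.4, 24.1 and 19.7 CPM. Mesp1, the early mesoderm factor, stood apart at 239, 490, 204 and 195 CPM, highest in barcodes with Etv2 and no Lmo2.

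Members set directly against the 526 barcodes with Etv2 and no Lmo2 gave 34 calls among 6659 measured genes (0.511%), 31 higher (0.466%) and 3 lower (0.0451%). Tal1 differed 19.3-fold (9.90 to 42.0), Exoc3l 4.33-fold (3.84 to 4.89), Igfbp4 2.33-fold (2.05 to 2.65) and Eng 2.16-fold. Mesp1 was among the 3 lower genes at a log2 ratio of -1.03. Kdr differed 1.42-fold (1.08 to 1.85) and was not called. Of the measured haemato-endothelial factors 2 of 4 were higher, and of the endothelial genes 3 of 8. In these lists 3 and 4 genes had passed 10 CPM only through the members, so the counts favour higher genes.

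**Figure D2:**
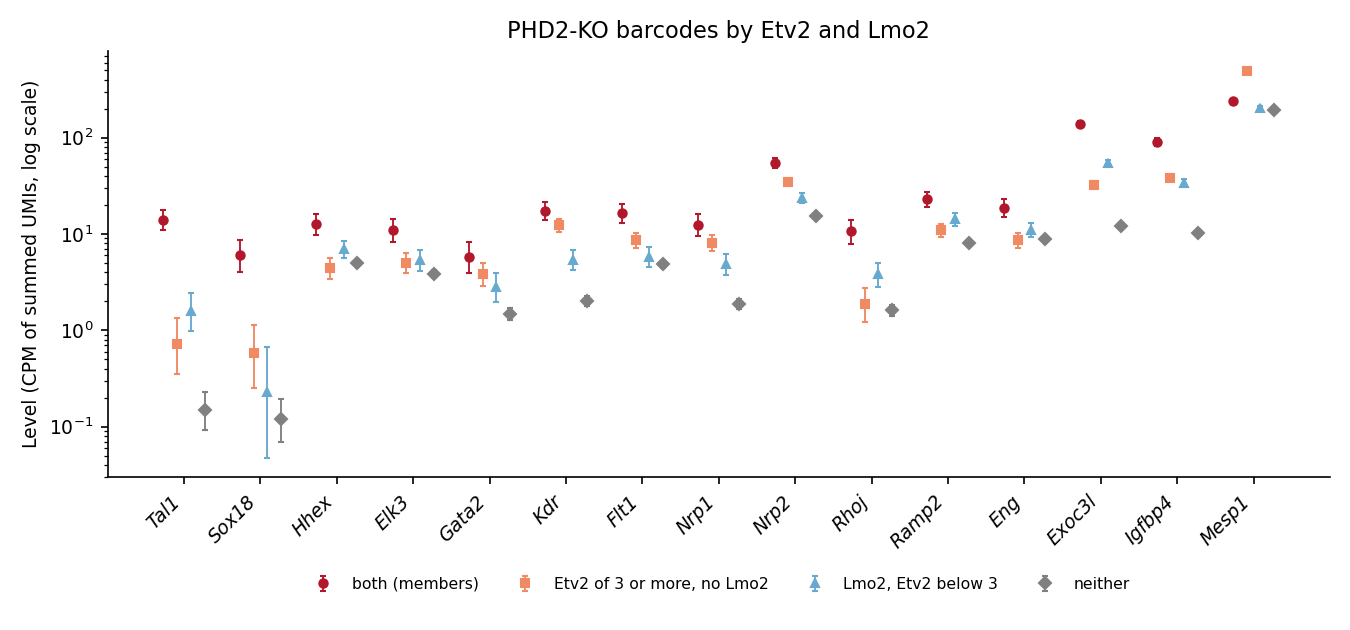
Level of 15 genes (CPM of summed UMIs, log scale, with exact 95% Poisson intervals) in PHD2-KO barcodes with both rule genes, with Etv2 alone, with Lmo2 alone and with neither. Etv2 counts from 3 UMIs, so the sets with Lmo2 alone and with neither also hold barcodes with 1 or 2 Etv2 UMIs. Tal1 is at 14.03 CPM in members and at 1.61 CPM or below in the other 3 sets, Kdr is at 17.4 CPM in members and 12.3 CPM with Etv2 alone, and Mesp1 is highest with Etv2 alone at 490 CPM.

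Genes of the streak and of early mesoderm divided in PHD2-KO members. Of 12 measured primitive streak genes 1 was higher and 0 lower, with a median log2 ratio of 0.05. Mixl1 was the higher one, at 190 CPM in PHD2-KO members and 71.8 CPM in the others (2.64-fold, 2.47 to 2.82), and at 5.82 CPM (3 UMIs) and 0.928 CPM in WT members and other WT barcodes. T was at 317 CPM in PHD2-KO members and 324 CPM in the others, and Eomes at 70.3 and 49.9 CPM. Fgf8 was at 124 and 177 CPM and Nodal at 40.7 and 68.1 CPM, neither past 2-fold. The interval of the T ratio (0.931 to 1.03-fold) included 1, so no difference in Brachyury was seen at this depth.

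Of 9 measured genes of nascent and paraxial mesoderm 2 were higher, and 1 of the 9 (Pmp22) had reached 10 CPM only through the members. Cyp26a1 was at 86.4 CPM in PHD2-KO members and 24.99 CPM in the others (3.46-fold, 3.12 to 3.82). Pmp22, a membrane protein gene, was at 27.9 and 6.47 CPM (4.30-fold, 3.58 to 5.14). Mesp1 was at 239 CPM in members and 220 CPM in the others and was found in 47.4% and 40.6% of barcodes. Lefty2, a Nodal antagonist, was at 7.81 and 14.3 CPM.

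Of 10 measured genes of lateral and extraembryonic mesoderm 3 were higher, all transcription factors. Of the 10, 2 (Gata6 and Gata4) had reached 10 CPM only through the members, which favours higher calls. Gata6 was at 21.4 CPM in PHD2-KO members and 5.56 CPM in the others (3.85-fold, 3.13 to 4.71). Tbx3 was at 37.3 and 12.2 CPM (3.05-fold, 2.61 to 3.54). Gata4 was at 11.2 and 4.08 CPM (2.75-fold, 2.06 to 3.61). Vim, the intermediate filament gene with the most UMIs of the list, was at 370 CPM (369.5) in members and 340 CPM (340.4) in the others. The 1 measured cardiac gene, Myl7 (13.2 and 8.18 CPM), was not called, nor was any of 3 caudal and Hox genes.

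Some genes of the mesenchymal side were higher, and a few epithelial and pluripotency genes lower, in PHD2-KO members. Of 8 measured genes of mesenchymal transition 4 were higher, and 3 of the 8 had reached 10 CPM only through the members. Fn1, the matrix protein fibronectin, was at 215 CPM in members and 91.5 CPM in the others (2.35-fold, 2.21 to 2.504), and Cdh2, N-cadherin, at 49.5 and 23.6 CPM (2.09-fold, 1.83 to 2.38). The basement membrane collagens Col4a1 (20.04 and 8.45 CPM) and Col4a2 (12.8 and 3.37 CPM) were also called, but 1 barcode held 34% of the members' Col4a1 UMIs and 28.1% of their Col4a2 UMIs. Without it Col4a1 had a log2 ratio of 0.60 and Col4a2 was below the limit at 9.29 CPM, so neither call held. Cdh2 was at a log2 ratio of 0.99 without the barcode of its highest count, just short of the limit.

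Of 10 measured epithelial genes 1 was lower, Cldn6, at 22.4 CPM in PHD2-KO members and 47.2 CPM in the others. Cdh1, E-cadherin, was at 37.7 and 65.5 CPM and Epcam at 145 and 249 CPM, both short of 2-fold. The epithelial list had a median log2 ratio of -0.73. Of 17 measured pluripotency genes 4 were lower and 0 higher, with a median of -0.37.

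Nanog was at 17.2 CPM in PHD2-KO members and 46.1 CPM in the others, a level 2.68-fold lower (2.16 to 3.35). Nanog in WT was at 9.70 CPM (5 UMIs) in members and 34.8 CPM in the others. Sox2 was at 8.22 CPM in PHD2-KO members and 25.4 CPM in the others, and at 17.45 CPM (9 UMIs) and 38.9 CPM in WT. Both pluripotency factors were lower in the members of each library. Klf2 (2.004 CPM in PHD2-KO members, 13.4 CPM in the others) and Gdf3 (2.004 and 10.1 CPM) were the other 2 called, and like Sox2 they reached 10 CPM only in the other barcodes, while Pou5f1, which also persists in the streak, was at 89.2 and 113 CPM and was not called.

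Genes of the BMP response stayed short of 2-fold in PHD2-KO members. Of 10 measured members of that list 0 were called, with a median log2 ratio of 0.38. Id1, a BMP target, was at 740 CPM (740.5) in PHD2-KO members and 530.0 CPM in the others, Id3 at 321 and 220 CPM (219.8), and Bambi, a decoy receptor, at 25.9 and 13.4 CPM. The ligand gene Bmp2 (5.21 and 1.095 CPM) was below 10 CPM.

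No gene was called among 13 measured HIF targets, 13 glycolysis genes, 20 S phase genes, 20 G2 and M phase genes, 5 Notch pathway genes, 8 dissociation stress genes or 8 actin genes. Their median log2 ratios lay between -0.08 and 0.13. Egln1 itself was at 13.8 CPM in PHD2-KO members and 13.7 CPM in the others. Ldha, lactate dehydrogenase A, was at 1788 and 1494 CPM. These groups had medians near that of all measured genes, -0.01.

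**Figure D3:**
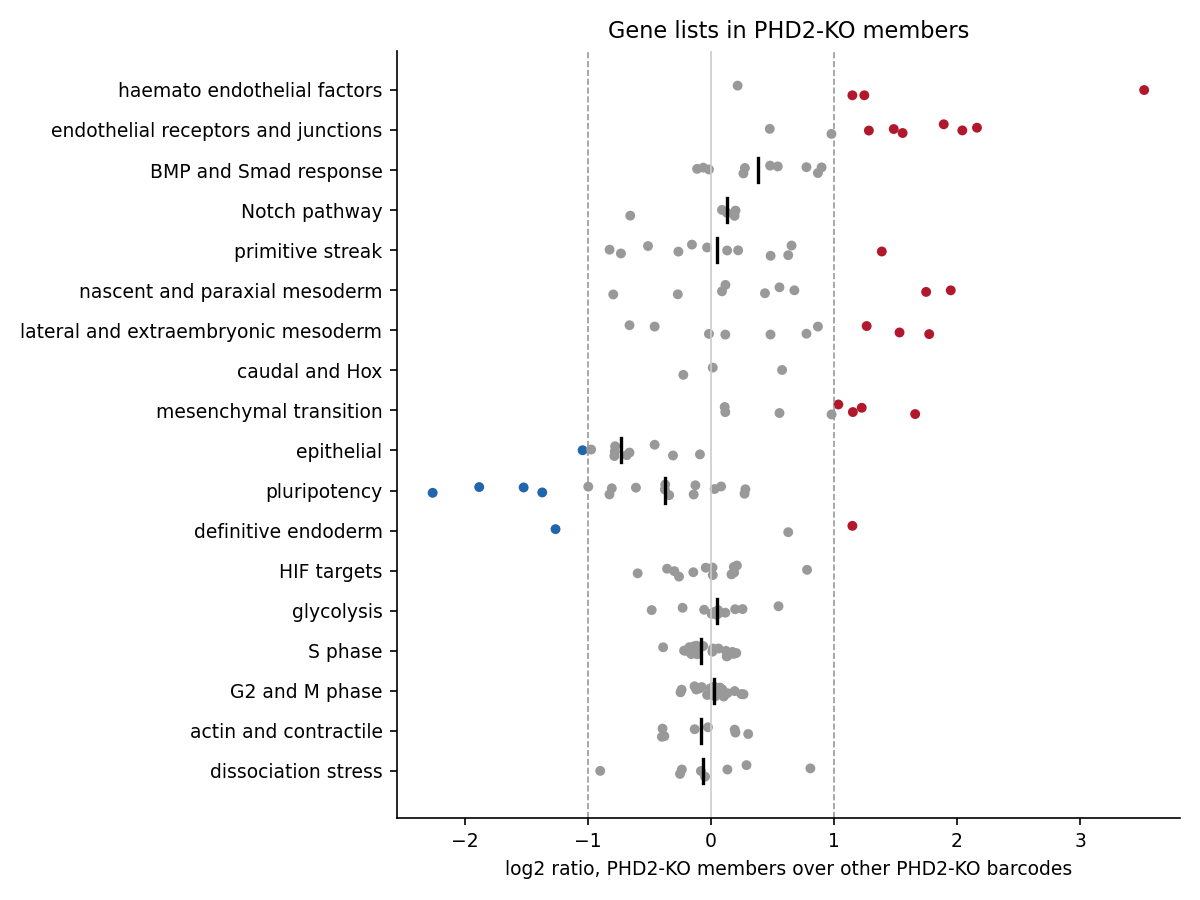
The log2 ratio of each measured gene (at least 10 CPM in the higher set; 1 CPM added to each level), PHD2-KO members over other PHD2-KO barcodes, by gene list; black bars are list medians, drawn only where no gene passed 10 CPM through the members alone, dashed lines the 2-fold limits, red genes past it upward and blue downward. In the endothelial list 6 of the 8 genes passed through the members alone, and the epithelial list has a median of -0.73; cell cycle, HIF and glycolysis genes lie within the limits.

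Among genes at 50 CPM or more, the highest ratios in PHD2-KO members were those of Exoc3l and Igfbp4. Exoc3l was at 139 CPM in PHD2-KO members (interval 129 to 150; 694 UMIs) and 16.9 CPM in the others (8.22-fold, 7.55 to 8.93), and at 89.2 CPM (46 UMIs) and 6.77 CPM in WT. Igfbp4 was at 89.6 CPM in PHD2-KO members and 14.3 CPM in the others (6.27-fold, 5.66 to 6.94), and at 36.8 CPM (19 UMIs) and 2.78 CPM in WT. Exoc3l was present in 67.9% of PHD2-KO members and 20.6% of the others, and Igfbp4 in 76.3% and 19.0%. In the naive-high barcodes, which were deeper (median 24516 UMIs, against 21288 in the others), the shares were 25.8% and 11.4%. Whether the naive-high barcodes express Exoc3l was not tested, so for this gene they give no background of free RNA. Outside the members Exoc3l was not uniform, at 89.85 CPM in the 54 barcodes with 2 Etv2 UMIs and Lmo2.

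The next in order were signalling and adhesion genes. Ltb, lymphotoxin beta, was at 117 CPM in PHD2-KO members and 36.8 CPM in the others (3.18-fold, 2.91 to 3.46). Amot, the angiostatin-binding protein angiomotin, was at 78.9 and 27.1 CPM. Dusp2, a phosphatase of MAP kinases, was at 61.9 and 24.6 CPM. Tgfb1, the TGF-beta ligand, was at 94.97 and 43.0 CPM. All of these were called, as were the heparan sulphate proteoglycan gene Gpc3 (54.9 and 24.7 CPM) and the chromatin gene Hmga2 (98.4 and 45.05 CPM). Within the chromosome 8 classes, described below, Gpc3 was short of 2-fold in each (log2 ratios 0.99 and 0.95), Tgfb1 in the low class (0.98) and Hmga2 in the high class (0.52). Upp1, Limd2 and Grrp1, which close the 15 highest together with Cyp26a1, Nrp2, Mixl1 and Fn1 above, were 1.82 to 1.85-fold higher and short of the limit.

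The lowest ratios at that level belonged to Trh, Peg10 and Igfbp3, which were called, and to Dppa5a, Tcea3, Sfn, Nefl, Myo10, Utf1 and Nefm, which were 1.77 to 1.997-fold lower and short of the limit. Trh, the thyrotropin-releasing hormone gene, was at 51.3 CPM in PHD2-KO members and 124 CPM in the others, and 1 barcode held 100 of the members' 256 UMIs. Within the high chromosome 8 class the Trh log2 ratio was -0.82, short of the limit. Peg10, an imprinted gene, was at 33.9 and 71.7 CPM, and Igfbp3 at 41.3 and 85.6 CPM, and neither passed the limit against barcodes of like depth (log2 ratios -0.965 and -0.97). Members were thus higher in the IGF-binding gene Igfbp4 and lower in Igfbp3. Below 50 CPM, and chosen after their values were seen, the Nodal antagonist Lefty1 was at 6.61 CPM in members and 44.1 CPM in the others (6.67-fold lower, 4.74 to 9.69) and the metabolic gene Tdh at 6.61 and 32.1 CPM.

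Single barcodes decided a minority of the higher calls in PHD2-KO members. Without the barcode of a gene's highest count, 17 of the 72 higher genes and 0 of the 31 lower genes lost their call. This removal lowers the members' level, so the 0 for the lower genes was set in advance and says nothing of them. Of the 72 higher genes 5 had over 25% of their member UMIs in 1 barcode (Srgn, Cryab, Col4a1, Ptgds and Col4a2). The median over the 72 genes was 5.86%. Of the 72 genes 11 had a UMI in over 50% of members. At this depth a UMI can be missed in a member that expresses the gene, so the share of members behind each call was not determined.

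Membership differed between the chromosome 8 classes, and the leading genes were higher in members within each class. Members were 111 of 3219 PHD2-KO barcodes of the low class (3.45%, 2.85 to 4.14%) and 79 of 4164 of the high class (1.90%, 1.51 to 2.36%). In WT they were 3 of 1297 (0.231%) and 10 of 7930 (0.126%). Tal1 was 45.7-fold higher in members within the low class and 49.9-fold within the high class. Exoc3l, which lies on chromosome 8, was at 96.1 CPM in members and 11.4 CPM in the others of the low class (8.44-fold), and at 198 and 21.3 CPM in the high class (9.30-fold). Igfbp4 was 5.01-fold higher in the low class (4.39 to 5.71) and 7.77-fold in the high class (6.58 to 9.13), intervals that did not overlap.

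Some genes did differ between the classes. Mesp1 was at 350 CPM in members and 334 CPM in the others of the low class, and at 86.2 and 129.5 CPM in the high class. Kdr was 4.03-fold higher in members of the low class (3.04 to 5.27) and 8.78-fold in the high class (5.42 to 13.7). Fn1 was 2.31-fold and 1.64-fold higher, the value in the high class short of 2-fold. What separates the classes was not tested.

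**Figure D4:**
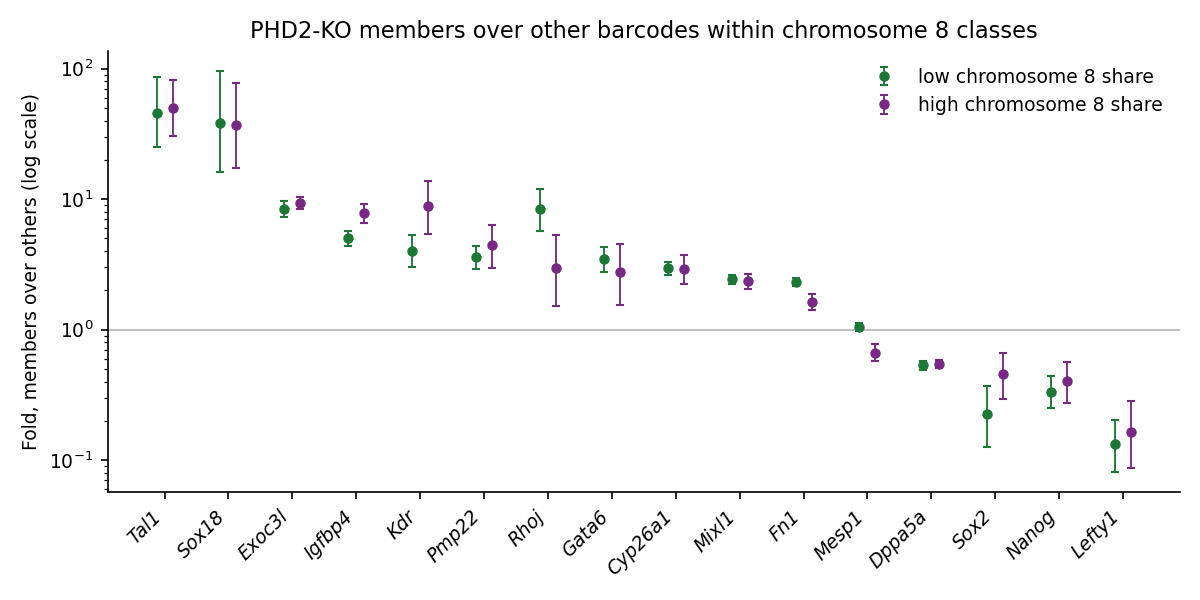
Fold of PHD2-KO members over other PHD2-KO barcodes for 16 genes (log scale, exact 95% intervals), within barcodes under 5.8% of UMIs from chromosome 8 (green) and the rest (purple). Tal1, Exoc3l and Igfbp4 are above 1 and Nanog, Sox2 and Lefty1 below 1 in each class, while Mesp1 is at 1.05 in the low class and 0.666 in the high class.

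Within the PHD2-KO members, several genes were higher with more Lmo2 UMIs, while others showed no such order. The 190 members comprised 93 with 1 Lmo2 UMI, 34 with 2 and 63 with 3 or more, at median depths of 24044, 22330 and 22823 UMIs. Tal1 was at 7.43, 4.89 and 29.1 CPM in that order, and Sox18 at 0.391, 3.67 and 16.1 CPM. Exoc3l was at 87.6, 144 and 218 CPM, Igfbp4 at 55.1, 92.9 and 142.5 CPM and Nrp2 at 37.5, 44.0 and 85.5 CPM. Mesp1 ran the other way, at 335, 211 and 101 CPM. The members with 3 or more Lmo2 UMIs, which were not deeper than the rest, were highest in Tal1, Sox18, Exoc3l, Igfbp4 and Nrp2 and lowest in Mesp1. The chromosome 8 classes, which differ in Mesp1, were not separated in this split.

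Kdr, Nrp1 and Mixl1 showed no such order. Kdr was at 15.6, 19.6 and 19.2 CPM with 1, 2 and 3 or more Lmo2 UMIs, and Mixl1 at 183, 194 and 198 CPM. Nrp1 was at 13.7, 8.56 and 12.4 CPM, and Flt1 was present in 26.9%, 26.5% and 25.4% of members. By Etv2 the order was another. With 3 to 5, 6 to 11 and 12 or more Etv2 UMIs (71, 51 and 68 members), Tal1 was at 6.19, 11 and 24.7 CPM, Hhex at 5.67, 13.4 and 19.7 CPM and Mixl1 at 132, 207 and 241 CPM. Exoc3l was at 139, 138 and 140 CPM (138.7, 138.3 and 139.9), with no difference beyond counting error. Tal1 was thus higher with more Etv2, and by Lmo2 only in the bin of 3 or more UMIs. Exoc3l was higher with more Lmo2 only among these 2 splits. The splits use the counts that chose the members and are a description.

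**Figure D5:**
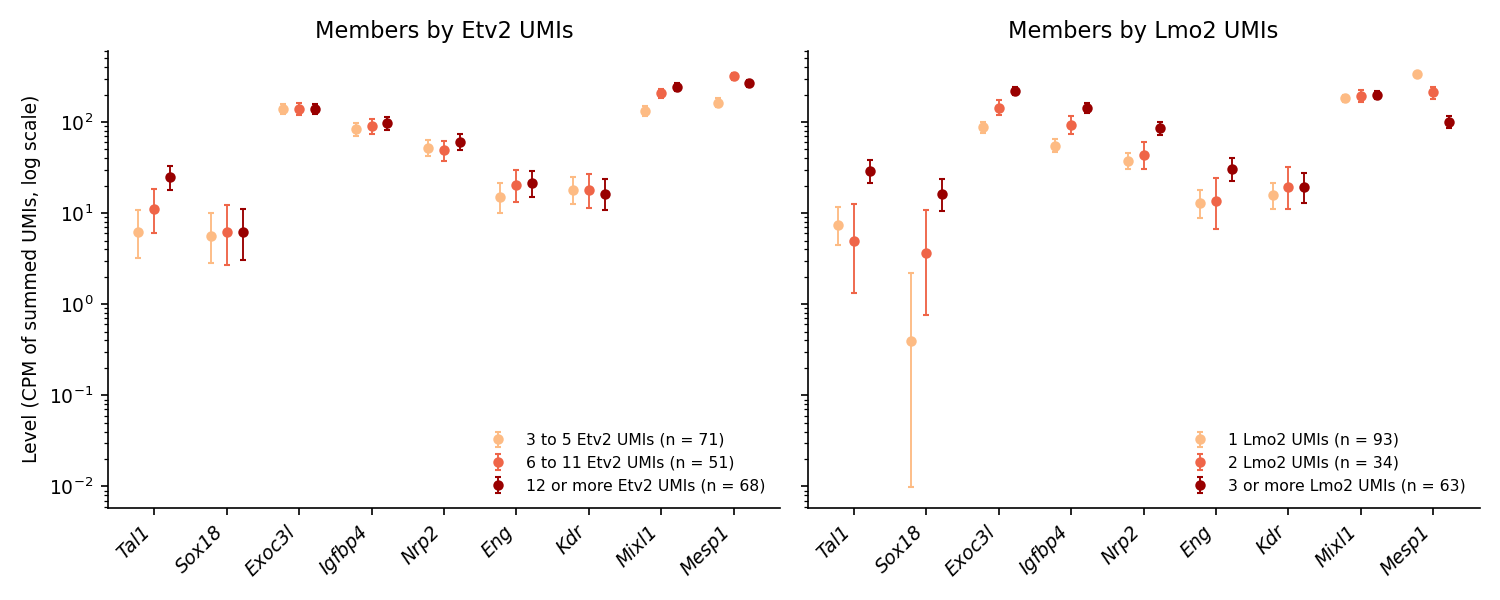
Level of 9 genes (CPM of summed UMIs, log scale, exact 95% Poisson intervals) in PHD2-KO members, split by Etv2 UMIs (left) and by Lmo2 UMIs (right). Exoc3l is at 138 to 140 CPM in all 3 Etv2 bins and at 87.6, 144 and 218 CPM in the Lmo2 bins, while Mesp1 is lowest, at 101 CPM, with 3 or more Lmo2 UMIs.

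Against early mesoderm, Tal1, Exoc3l and some endothelial genes were higher in the members and most genes of nascent mesoderm lower. The comparison was with 1295 PHD2-KO barcodes that held at least 3 Mesp1 UMIs and were not members. It gave 94 calls among 6685 measured genes (1.41%), 68 higher (1.02%) and 26 lower (0.389%). Exoc3l was at 139 CPM in members and 14.85 CPM in Mesp1 barcodes (9.36-fold, 8.32 to 10.5), Ltb at 117 and 20.4 CPM (5.74-fold) and Igfbp4 at 89.6 and 29.1 CPM (3.08-fold). Tal1 was at 14.03 and 0.370 CPM (37.9-fold, 20.4 to 76.9). Of the haemato-endothelial factors 3 of 4 measured were higher, and of the endothelial genes 3 of 8, where 3 and 4 genes had passed 10 CPM only through the members. Of 11 measured streak genes 1 was lower and 0 higher, with a median log2 ratio of -0.42.

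Kdr was at 17.4 CPM in members and 10.7 CPM in Mesp1 barcodes (1.63-fold, 1.27 to 2.06) and was not called. Mixl1 was at 190 and 187 CPM and Cyp26a1 at 86.4 and 101 CPM, so the excess of these genes over the whole library was not seen over Mesp1 barcodes. Also higher in members, among genes at 50 CPM or more, were Psors1c2 (95.2 and 34.8 CPM), Utf1, a chromatin factor of the epiblast (57.5 and 22.3 CPM), Id2 (50.3 and 20.6 CPM), the AP-1 gene Jund (306 and 129 CPM) and Wfdc2 (62.5 and 28.4 CPM). Against all other PHD2-KO barcodes Utf1 stood at 57.5 and 102.5 CPM, short of 2-fold.

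Genes of nascent mesoderm were lower than in Mesp1 barcodes. Of 11 measured genes of that list 7 were lower and 0 higher, Mesp1 itself (239 and 1081 CPM) being a level that chose the comparison set. How far that choice raised other genes of the list in the set was not tested. Against all other PHD2-KO barcodes 2 of 9 measured genes of the list were higher and 0 lower. Lefty2 was at 7.81 CPM in members and 31.3 CPM in Mesp1 barcodes, Snai1, a factor of epithelial to mesenchymal transition, at 17.8 and 42.7 CPM (42.65), and the receptor gene Pdgfra at 3.41 and 16.5 CPM. Outside that list Lhx1, a homeobox gene of axial mesoderm, was at 36.9 and 141 CPM, Efna3 at 27.1 and 68.3 CPM and the kinase gene Sgk1 at 27.7 and 58.6 CPM. Gsc, an organizer homeobox gene (31.1 and 60.9 CPM), and Eomes (70.3 and 124 CPM) were short of 2-fold.

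The 13 WT members gave few reads and their values have wide intervals. Together they held 515701 UMIs, so 10 CPM stood for 5.16 UMIs. Set against the other WT barcodes they gave 331 calls among 6358 measured genes (5.21%), 157 higher (2.47%) and 174 lower (2.74%). For 120 of the higher and 68 of the lower genes the interval of the fold excluded 1. The Exoc3l levels differed 13.2-fold (9.61 to 17.7) and the Igfbp4 levels 13.3-fold (7.94 to 20.9).

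Called in the same direction in both libraries were 7 higher genes, which are 9.72% of the PHD2-KO and 4.46% of the WT higher calls. They were Exoc3l, Igfbp4, Ramp2, Arhgdib, Tecpr1, Cib2 and 4931428F04Rik. The 6 shared lower genes, 19.4% of the PHD2-KO and 3.45% of the WT lower calls, were Nanog, Sox2, Lefty1, Trh, Peg10 and Igfbp3. Among the 6042 genes measured in both libraries 0 were called in opposite directions. Calls were sparse in WT (2.47% of its measured genes higher and 2.74% lower), so that count of 0 says little. Tecpr1, at a PHD2-KO log2 ratio of 0.99 without the barcode of its highest count, was not called there. Apart from Exoc3l, Igfbp4, Ramp2, Trh, Peg10 and Igfbp3, these names were taken after the values were seen.

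The genes at 50 CPM or more with the highest WT ratios, after Exoc3l, were Knstrn, Arid2, Psors1c2, Thoc2, Eva1b, Uxt and Egfl7. Egfl7 was at 83.4 CPM in WT members and 48.5 CPM in the other WT barcodes and was not called. T was at 19.4 CPM (10 UMIs) in WT members and 5.67 CPM in the others (3.42-fold, 1.64 to 6.31), with a UMI in 5 of 13 members and 10.3% of the others. Mesp1 and Cyp26a1 had 0 UMIs in WT members. The lowest ratios were those of Chaf1b (17.45 and 50.2 CPM), Smco4, Anxa2 (19.4 and 50.3 CPM), Trh (29.1 and 71.3 CPM), Krt18 (91.1 and 200.0 CPM) and Krt8 (75.6 and 165 CPM). The simple keratins Krt8 and Krt18 were thus lower in WT members, while in PHD2-KO members Krt8 was at 242 CPM (241.6) against 332 CPM in the others and not called.

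PHD2-KO members set against WT members differed in streak and mesoderm genes, as their libraries did. There were 963 calls among 6895 measured genes (14%), 729 higher (10.6%) and 234 lower (3.39%), and 433 and 176 of these had intervals that excluded 1. The median log2 ratio of all measured genes was 0.10. With median-of-ratios scaling, which moves all ratios by 0.10, the calls were 601 higher and 330 lower. Thinned to 14000 UMIs, which left 105 PHD2-KO and 7 WT members, they were 1326 higher and 1643 lower, so the balance of directions turned. Of 11 measured streak genes 10 were higher and of 8 genes of nascent mesoderm 8. In each list 6 genes had passed 10 CPM only through the PHD2-KO members, so these counts favour higher genes by construction.

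Mesp1 was at 239 CPM in PHD2-KO members and at 0 UMIs in WT members, at least 41.1-fold higher against a floor of 3 UMIs over the 13 members. Cyp26a1 was at 86.4 CPM and at 0 UMIs, at least 14.8-fold higher on the same floor. Mixl1 was at 190 and 5.82 CPM (32.6-fold, 11.1 to 158) and T at 317 and 19.4 CPM (16.4-fold, 8.88 to 34.2). The other barcodes of the libraries gave 223 calls among 6565 measured genes (3.4%), 189 higher in PHD2-KO (2.88%) and 34 lower (0.518%). Between them T differed 57.2-fold (54.1 to 60.5), at 324 CPM in PHD2-KO and 5.67 CPM in WT. The T value of the WT members rests on 10 UMIs in 5 barcodes, and the difference between these contrasts was not tested.

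Also higher in PHD2-KO members were Sp5, a Wnt target (62.3 CPM and 1 UMI, 1.94 CPM; 32.1-fold, 5.725 to 1273), Upp1, which acts in pyrimidine salvage (283 and 13.6 CPM; 282.5), Ifitm1, an interferon-induced membrane protein gene of early mesoderm (627 and 46.5 CPM), and Evx1os (52.1 CPM and 2 UMIs, 3.88 CPM; 13.4-fold, 3.68 to 111.5). Lower were Utf1 (57.5 and 409 CPM, 7.12-fold), the metallothionein genes Mt3 (10.8 and 69.8 CPM) and Mt2 (499 and 1834 CPM), Syngr1 (14.03 and 65.9 CPM), the polarity gene Crb3 (17.6 and 73.7 CPM) and the epithelial trafficking gene Rab25 (15.6 and 60.1 CPM). The same contrast between the other barcodes was 8.51-fold for Sp5, 13.4-fold for Upp1 and 9.40-fold for Ifitm1 higher, and 4.14-fold for Utf1 and 1.66-fold for Mt2 lower.

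Exoc3l and Igfbp4, which led the members among genes at 50 CPM or more, differed less by genotype than Mixl1 and T above. Exoc3l was at 139 CPM in PHD2-KO members and 89.2 CPM in WT members (1.56-fold, 1.16 to 2.15), and was not called. Igfbp4 was at 89.6 and 36.8 CPM (2.43-fold, 1.54 to 4.08) and was called higher. Between the other barcodes of the libraries Exoc3l differed 2.5-fold and Igfbp4 5.15-fold. The difference between these contrasts was not tested, as each genotype has 1 library. Of the haemato-endothelial factors, 3 of 4 measured were higher in PHD2-KO than in WT members, and 0 lower. All 4 had passed 10 CPM only through the PHD2-KO members, so this count favours higher genes. Tal1 was present in 41 of 190 PHD2-KO members (21.6%) and 1 of 13 WT members. The WT interval (0.1946 to 36.03%) included the PHD2-KO share. Kdr was at 17.4 CPM in PHD2-KO members and at 0 UMIs in WT members, which allows up to 5.82 CPM.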

How the data were processed

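The authors deposited, per sample, a 10x matrix of raw UMI counts per gene and barcode. Per the file headers it was written by Cell Ranger 4.0.0, and the submitters' processing notes name Cell Ranger, Seurat and mm10. No source used here gives the filters applied before deposit. The PHD2-KO library held 7713 barcodes and 173470962 UMIs and the WT library 9651 barcodes and 226179474 UMIs, over 27998 genes. Barcodes with fewer than 1000 genes (298 and 391, same order) or over 10% mitochondrially encoded UMIs (150 and 157) were left out. Doublets were scored (Scrublet in scanpy 1.11.5) and kept.

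The members, markers and gene lists were chosen with earlier results of these data known. UMIs were summed per set and scaled to CPM. Ratios carried 1 CPM on each side, were computed for genes at 10 CPM or more in the higher set and were called past 2-fold. Folds in the text are plain ratios of CPM, with exact conditional binomial intervals at 95%. Levels carry Poisson and shares Clopper-Pearson intervals. A count of 0 allows 3 UMIs. Cells are not replicates, and with 1 library per genotype nothing was tested. The call step was tested on simulated data. Used were Python 3.11.15, numpy 2.4.6, scipy 1.17.1, pandas 2.3.3 and matplotlib 3.10.9.

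Named were the 4 markers, the 15 highest and 10 lowest ratios in PHD2-KO and the 8 highest and 6 lowest in the WT, genotype and Mesp1 comparisons at 50 CPM or more (Etv2, Lmo2, mitochondrial, ribosomal protein, Gm and Rik genes left out). Also named were the most abundant gene and up to 2 genes at each end of each list, and any haemato-endothelial, endothelial or blood gene. Other genes were named after their values were seen. Alternatives changed the barcode limits, doublets, minimums, scaling, level, depth, fold, pseudocount, chromosome 8 class and 1 barcode.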

Additional observations from a re-analysis of the deposited data

How the results depend on the processing

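The share of members in PHD2-KO (2.57%) was 3.305% with an Etv2 minimum of 2, 1.84% with 5, 1.31% with an Lmo2 minimum of 2, 1.56% when thinned, and 3.45% and 1.90% in the low and high chromosome 8 classes. In WT (0.141%) it was 0.282% and 0.0433% with Etv2 minimums of 2 and 5 and 0.0217% with an Lmo2 minimum of 2. The 103 PHD2-KO calls became 164 and 41 with limits of 5 and 20 CPM, and 324 and 28 with limits of 1.5-fold and 3-fold. With the same 4 settings the 331 WT calls became 833, 89, 1172 and 51, the 963 calls between genotypes 1703, 449, 2181 and 367, and the 94 calls against Mesp1 barcodes 143, 45, 283 and 29. An Etv2 minimum of 5 gave 1707 WT calls and 2157 between genotypes, from fewer members. An Lmo2 minimum of 2, which left 2 WT members, gave 1626 higher and 1923 lower in WT and 2403 and 1355 between genotypes. Thinning, which left 7, gave 1858 and 897 in WT, and the low chromosome 8 class, with 3, gave 1669 and 1420 in WT and 1936 and 1525 between genotypes. In PHD2-KO the higher and lower calls were 124 and 67 with that Lmo2 minimum and 128 and 90 when thinned. The mean over barcodes gave 577 WT calls, and comparators of like depth gave 1488 between genotypes. The cause of the last 2 was not tested. Of 703 alternative values of 64 named genes and list medians 630 lay within the interval, 73 moved and 0 called values reversed, while 19 values near 0 changed sign. The log2 ratio was 3.28 to 5.11 for Tal1, 1.83 to 2.45 for Kdr, 2.88 to 3.16 for Exoc3l and -1.56 to -1.265 for Nanog, and -1.73 to -0.82 for Trh. Without the barcode of highest Srgn, 96 genes were called, and 86 held their call without the barcode of their own highest count. The latter removal could cost only higher genes their call, and the 31 lower genes are among the 86. The chromosome 8 classes and these barcodes were chosen as alternatives after seeing the data. No paired analysis was possible because each genotype has 1 library. The 13 WT members limit every result in which they enter.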

Other observations

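A single PHD2-KO member stood apart in basement membrane genes. It held 39567 UMIs, with 13 of Etv2, 8 of Lmo2, 2 of Tal1, 1 of Kdr and 0 of Mesp1. It held 102 of the 104 UMIs of Srgn, a proteoglycan of secretory granules, that were found in the 190 members, and 102 of the 104 of Cryab, a small heat shock protein gene. The laminin gene Lama1 had 37 of its 45 member UMIs there, Sox17, an endoderm and endothelial factor, 16 of 26, and Epas1, the HIF-2 alpha gene, 13 of 16. Sparc was at 5131 CPM in that barcode and 159 CPM in the PHD2-KO barcodes outside the members. Without it the log2 ratio of Srgn was 0.20, and 96 genes were called in place of 103. It was picked after its values were seen.

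Other markers gave further values for the 190 PHD2-KO members. Vax1, a homeobox gene, was at 17.4 CPM in members and 2.58 CPM in the others (6.77-fold), and the GATA factor Gata3 at 15.03 and 4.2 CPM. Lmo1, the relative of Lmo2, was at 38.5 and 16.7 CPM (log2 ratio 0.92, not called, without the barcode of its highest count), and the matrix protease gene Mmp9 at 11.6 and 2.34 CPM. These 4 were named after their values were seen. The summed markers of naive pluripotency were at 330 CPM (329.8) in members and 658 CPM in the others, those of nascent mesoderm at 531 and 341.5 CPM and those of lateral mesoderm at 140 (140.3) and 73.1 CPM. Markers of trophoblast were at 39.9 and 32.5 CPM, of feeder fibroblasts at 19.2 and 10.5 CPM and of neuroectoderm at 41.1 and 43.2 CPM. Some of these sums rested mostly on 1 gene. Dppa5a, itself not called, held 1487 of the 1646 naive UMIs in members and 100007 of 110570 in the others. Cdh11 held 80 of the members' 96 feeder fibroblast UMIs, and Nes 192 of their 205 neuroectoderm UMIs. The part of the summed markers in other results was not tested.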
